A study of Mus musculus with 12 samples.

Results

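Transcripts of 10 genes that carry out glucose uptake and glycolysis were followed through the first 6 h of adipogenesis: the glucose transporter gene Slc2a1, the hexokinase genes Hk1 and Hk2, the platelet-type phosphofructokinase gene Pfkp, and the genes of aldolase A (Aldoa), glyceraldehyde-3-phosphate dehydrogenase (Gapdh), phosphoglycerate kinase (Pgk1), enolase 1 (Eno1), pyruvate kinase of the muscle type (Pkm) and lactate dehydrogenase A (Ldha). Members were all probes whose transcript accession belongs to one of these genes. They numbered 20 among 41174 probes, and each of the 10 genes, of 18217 with a named probe, had at least 1. The mRNAs were measured in 3T3-L1 cells, a mouse fibroblast line that turns into adipocytes after hormonal induction, on 12 one-colour arrays, with 3 replicates in each of 4 groups. Cells of the 0 h groups were harvested without hormones, from medium with 10% newborn bovine serum. Cells of the 6 h groups had spent 6 h in 10% fetal bovine serum with 0.5 mM isobutylmethylxanthine, 1 µM dexamethasone and 5 µg/ml insulin, so the kind of serum also differed between the times. At each time the lysate was run on a sucrose gradient, and RNA from fractions 5 to 7 made the non-polysomal pool. The polysomal pool came from fractions 9 to 11. No array of unfractionated RNA was analysed here. In such bulk RNA, fewer cells that hold a transcript and less of it per cell cannot be told apart.

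Every cell draws on glycolysis for ATP and for building blocks. Slc2a1 is the insulin-independent carrier of most growing cells, and hexokinase then traps glucose by phosphorylating it. Phosphofructokinase commits the sugar to breakdown, the enzymes from aldolase to pyruvate kinase return ATP and NADH, and lactate dehydrogenase regenerates NAD+ from NADH. Insulin, growth factors, Myc and hypoxia are known to raise transcripts of this pathway, Hk2 and Slc2a1 among them. Position in such a gradient follows the rate of sedimentation, so an mRNA that carries several ribosomes runs into the polysomal fractions and one that carries none stays above them.

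Intensities are given on the log2 scale after scaling by spike-ins, which are control RNAs added to the pools. A probe was called where its difference had an adjusted p below 0.05 in limma, with Benjamini-Hochberg adjustment over all probes. The M-value is the change over 6 h in polysomal RNA minus the change in non-polysomal RNA. Of the 20 member probes, 18 were well above background on all 12 arrays, and no spot of theirs was saturated. The other 2 were the dimmest of 6 Hk1 probes, of which A_52_P87141 was not well above background on any array. Fibroblast or preadipocyte markers were well above background on all arrays for 10 of 10 genes, among them Col1a1 and Dlk1. The count was 6 of 10 for mature adipocyte markers, Fabp4 and Pparg included, with Cfd and Lep well above background on no array. It was 1 of 4 for macrophage (Csf1r), 0 of 4 for endothelial and 2 of 4 for skeletal muscle markers (Acta1 and Myod1).

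The scale of the 6 h polysomal arrays depended on which spike-ins set it. On those arrays the 5 dimmer spike-ins differed from the other arrays by -0.91 to -0.76, and the 5 bright ones by -0.28 to -0.02. Mean intensities were 7.8 to 16.8 for the dimmer and 18.3 to 19.1 for the bright spike-ins, and the highest member spot read 18.5 before scaling. After scaling, the brightest probes of Aldoa and Ldha averaged 18.70 and 18.21 in 6 h polysomal RNA, so the brightest members lay near the bright spike-ins. The median M-value of all probes was 0.49 with all spike-ins, 0.03 with the bright ones, 0.94 with the dimmer ones and 0.06 with scaling to the 75th percentile. Over all probes the median change was 0.54 in polysomal and 0.04 in non-polysomal RNA. Polysomal changes of the brightest probes are therefore also given relative to, and M-values set against, the median of all probes.

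In polysomal RNA the brightest probe of each of the 10 genes was called higher at 6 h with spike-in scaling, although Hk1 and Pfkp changed sign with scaling to the 75th percentile, Pfkp with the bright spike-ins alone, and Hk1, Pfkp and Pkm with quantile normalization. The change was 24.1-fold for Hk2, the largest among the members, and between 1.18-fold (Pfkp) and 3.11-fold (Slc2a1) for the brightest probes of the other 9. Over the 20 probes, 15 were called higher, against 50.7% of all probes, and 1 was called lower, against 11.7% of all probes. The 15 include Hk1 probe A_52_P87141, which was not well above background in either group. The median change of the member probes was 0.88, beside 0.54 over all probes. Relative to that median of all probes, the polysomal change of the brightest probe was 4.06 for Hk2, 1.1 for Slc2a1, 0.95 for Ldha, 0.83 for Gapdh, 0.83 for Pgk1, 0.36 for Eno1, 0.32 for Pkm and 0.29 for Aldoa, and it was -0.05 for Hk1 and -0.30 for Pfkp. Of the 8 scalings, all kept Hk2 and Slc2a1 above the median and Hk1 and Pfkp below it, 7 kept Aldoa, Gapdh, Pgk1, Eno1 and Ldha above it, and 6 kept Pkm, with lowest values of -0.77 for Aldoa, -0.10 for Gapdh, -0.09 for Pgk1, -0.27 for Eno1, -0.07 for Ldha and -0.51 for Pkm. In non-polysomal RNA the same genes went both ways: 6 of 20 probes were called higher and 7 lower, where the shares of all probes were 20.6% and 19.6%. By brightest probe, Slc2a1, Hk2, Eno1 and Ldha rose there, Aldoa, Gapdh and Pgk1 fell, and Hk1, Pfkp and Pkm were not called.

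**Figure D1:**
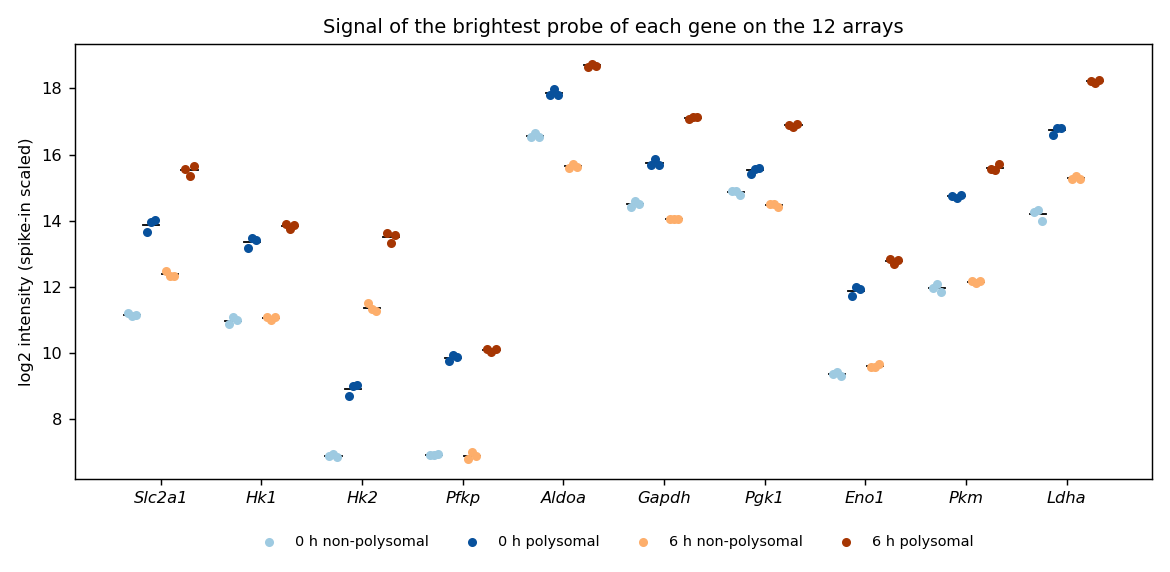
Spike-in scaled log2 intensity (y axis) of the brightest probe of each of the 10 genes on the 12 arrays, as 1 point per array, with the group mean as a line; blue is 0 h and orange or brown is 6 h, light for non-polysomal and dark for polysomal RNA. Levels of different genes come from different probes and cannot be ranked. Hk2 moved from a non-polysomal mean of 6.90 to 11.38, while Aldoa, Gapdh and Pgk1 dropped in non-polysomal and rose in polysomal RNA.

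Slc2a1, the transporter, rose in both pools. Its intensity in non-polysomal RNA was 11.21, 11.13 and 11.15 at 0 h and 12.47, 12.35 and 12.32 at 6 h. In polysomal RNA it was 13.66, 13.95 and 14.03 at 0 h and 15.57, 15.35 and 15.64 at 6 h. Neither pair of groups overlapped. The rise was 1.64 ± 0.11 (SE, n = 3 arrays a group; 3.11-fold, limma adjusted p 7.27e-07) in polysomal RNA and 1.22 ± 0.11 (2.32-fold, adjusted p 9.85e-06) in non-polysomal RNA. Across 8 scalings the polysomal rise of Slc2a1 stayed 0.29 to 1.14 above the median of all probes. Its M-value, 0.42 ± 0.16, missed the threshold (adjusted p 0.0624), passed it without polysomal array 3 of 0 h (0.50) or 2 of 6 h (0.51), and lay -0.06 from the median of all probes.

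Hk2, a hexokinase that is induced by insulin, changed most among the members. In non-polysomal RNA its intensities were 6.88, 6.94 and 6.87 at 0 h against 11.52, 11.33 and 11.28 at 6 h. In polysomal RNA they were 8.70, 9.01 and 9.03 against 13.62, 13.32 and 13.57. All arrays at 6 h exceeded all arrays of the same pool at 0 h by more than 4 log2 units. The change came to 4.59 ± 0.12 in polysomal RNA (24.1-fold, limma adjusted p 1.76e-09) and to 4.48 ± 0.12 in non-polysomal RNA (22.3-fold, adjusted p 4.31e-09). Of all probes, 99.8% had a lower signed difference in polysomal RNA and 99.9% in non-polysomal RNA. The M-value of Hk2 was 0.11 ± 0.17 with an adjusted p of 0.604, and it turned to -0.46 under quantile normalization. At 0 h its polysomal signal already exceeded the non-polysomal one by 2.02, and at 6 h by 2.13.

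Hk1, the housekeeping hexokinase, gave readings that differed between its 6 probes. The brightest, A_52_P102773, rose by 0.48 ± 0.10 in polysomal RNA (limma adjusted p 0.00186), reversing to -0.51 with quantile normalization, and by 0.08 ± 0.10 in non-polysomal RNA (adjusted p 0.62). Probe A_51_P249024 instead fell by 0.95 ± 0.15 in polysomal and by 0.93 ± 0.15 in non-polysomal RNA (adjusted p 0.000291 and 0.000451). Its intensities were 9.88, 9.33 and 9.84 in non-polysomal RNA at 0 h and 8.94, 8.65 and 8.66 at 6 h, with no overlap. It was also the only 1 of the 5 detected Hk1 probes that was not called higher in polysomal than in non-polysomal RNA, with differences of -0.31 ± 0.15 at 0 h and -0.33 ± 0.15 at 6 h. The brightest probe carries the accession NM_001146100 and the other 5 carry NM_010438, so the probes of one accession disagree. Probe A_52_P674530 rose by 0.79 ± 0.28 in non-polysomal RNA (adjusted p 0.0465), where the third 6 h array read 7.59 and the others 6.44 and 6.29. Without that array the rise was 0.38 and still called (adjusted p 0.0236), and the call was lost on leaving out any 1 array of the other 3 groups. Probe A_52_P87141 was called in polysomal RNA but was not well above background in either group, so no fold is given for it.

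Pfkp, the phosphofructokinase of this set, moved little. Its brighter probe read 9.75, 9.94 and 9.88 in polysomal RNA at 0 h and 10.13, 10.02 and 10.14 at 6 h, and these ranges did not overlap. The difference, 0.24 ± 0.08 (limma adjusted p 0.0256), was smaller than the median of all probes and turned to -0.25 with scaling to the 75th percentile. The non-polysomal ranges overlapped (6.92 to 6.96 at 0 h and 6.80 to 7.02 at 6 h), with a difference of -0.03 ± 0.08. The call was lost without polysomal array 1 or 3 of either time. The dimmer Pfkp probe was called in neither pool.

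Aldoa, Gapdh and Pgk1, which act one after another from the splitting of the hexose to the first ATP-yielding step, shared a pattern in which the 2 pools moved in opposite directions. Aldoa is read by 2 probes, and its brighter one gave 16.53, 16.65 and 16.54 in non-polysomal RNA at 0 h and 15.60, 15.71 and 15.64 at 6 h. In polysomal RNA it gave 17.80, 17.99 and 17.81 at 0 h and 18.66, 18.75 and 18.68 at 6 h. Each pool thus separated fully by time, downwards in the first and upwards in the second.

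The brighter Gapdh probe read 14.42, 14.59 and 14.51 in non-polysomal RNA at 0 h and 14.07, 14.06 and 14.06 at 6 h. In polysomal RNA the readings were 15.69, 15.87 and 15.67 at 0 h and 17.08, 17.14 and 17.13 at 6 h. Pgk1, on a probe printed 10 times on each array, gave 14.90, 14.90 and 14.79 against 14.50, 14.49 and 14.42 in non-polysomal RNA. In polysomal RNA it gave 15.40, 15.58 and 15.59 against 16.90, 16.82 and 16.94. Both genes, like Aldoa, showed no overlap between times in either pool.

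In non-polysomal RNA, the difference for the brighter probe was -0.93 ± 0.08 for Aldoa (1.90-fold lower, limma adjusted p 3.99e-06). It was -0.44 ± 0.08 for Gapdh (1.36-fold lower, adjusted p 0.00077) and -0.39 ± 0.08 for Pgk1 (1.31-fold lower, adjusted p 0.00183). The second probes gave -1.0, -0.43 and -0.45. Relative to the median of all probes, the non-polysomal difference of the 6 probes stayed below 0 under all 8 scalings. In polysomal RNA the brighter probes rose by 0.83 ± 0.08 for Aldoa (1.78-fold), 1.37 ± 0.08 for Gapdh (2.58-fold) and 1.36 ± 0.08 for Pgk1 (2.57-fold), with adjusted p-values of 5.95e-06, 1.55e-07 and 1.76e-07. With quantile normalization the second Aldoa probe turned to -0.20, and the brighter probes of Gapdh and Pgk1 were at 0.13 with adjusted p-values of 0.124 and 0.0532.

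**Figure D2:**
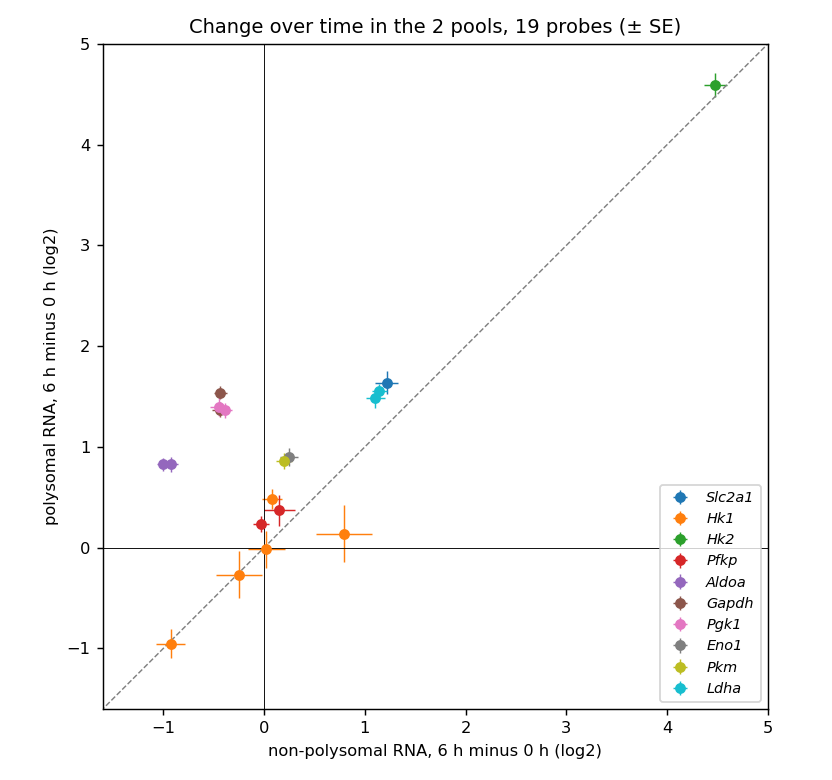
Change from 0 h to 6 h (log2, fitted difference ± SE) in non-polysomal RNA on the x axis and in polysomal RNA on the y axis for the 19 member probes detected, that is well above background on all arrays of at least 1 group, coloured by gene; the dashed line marks equal change in both pools. Hk2 lies on that line at 4.48 and 4.59, Slc2a1 and Ldha lie above it with both changes over 1, and the 6 probes of Aldoa, Gapdh and Pgk1 lie left of 0 on the x axis and above 0 on the y axis.

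The lower steps divided again. Eno1 rose by 0.90 ± 0.09 in polysomal RNA (1.87-fold, limma adjusted p 1.03e-05), from 11.71, 11.98 and 11.94 to 12.84, 12.68 and 12.82. Its non-polysomal change was 0.25 ± 0.09 (adjusted p 0.0471), a call that was lost with the replicate number as a block (adjusted p 0.0787) and on leaving out any 1 array other than polysomal arrays 1 and 2 of 0 h and 2 of 6 h, at values of 0.22 to 0.28. Pkm went from 14.73, 14.70 and 14.79 to 15.57, 15.53 and 15.71 in polysomal RNA, and whether its probe tells the M1 from the M2 splice form was not tested. The polysomal rise of Pkm was 0.86 ± 0.08 (1.82-fold, limma adjusted p 6.95e-06), although it read -0.35 under quantile normalization. Non-polysomal Pkm differed by 0.20 ± 0.08 and missed the threshold (adjusted p 0.0811).

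Ldha, which turns pyruvate into lactate, rose in both pools. Its brighter probe read 14.26, 14.31 and 14.01 in non-polysomal RNA at 0 h and 15.27, 15.35 and 15.27 at 6 h. In polysomal RNA it read 16.60, 16.80 and 16.79 at 0 h and 18.21, 18.17 and 18.26 at 6 h. The groups were separate in both pools. The changes were 1.48 ± 0.09 in polysomal (2.79-fold, limma adjusted p 4.2e-07) and 1.1 ± 0.09 in non-polysomal RNA (2.15-fold, adjusted p 5.54e-06), and the second probe gave 1.55 and 1.14.

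Most member mRNAs gave a higher scaled signal in polysomal than in non-polysomal RNA before induction, although 4 member probes, those of Pgk1 among them, were called the other way with scaling to the 75th percentile. The paper matched the spike-ins to an amount of RNA, and part of the gradient was in neither pool. The differences therefore do not give the share of an mRNA on polysomes. At 0 h, 18 of the 20 probes were called higher in polysomal RNA, beside 37.0% of all probes, and limma called 0 lower at an adjusted or an unadjusted p below 0.05, beside 15.0% of all probes. The median difference was 1.78 over the member probes and 0.15 over all probes. At 6 h, 18 were again called higher, beside 59.9% of all probes, and 0 lower, beside 9.99% of all probes, with 1 lower at an unadjusted p below 0.05. The median was then 2.85 over the member probes and 0.68 over all probes. These shares and medians of all probes include dim ones. Between 55.7% and 60.8% of all probes were well above background on an array, while 19 of the 20 member probes were detected.

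At 0 h the brightest probes of the 10 genes ran from 0.66 for Pgk1 to 2.92 for Pfkp. Pgk1 (0.66 ± 0.08), Gapdh (1.24 ± 0.08) and Aldoa (1.29 ± 0.08) were at the lower end. Hk2 followed at 2.02, Hk1 at 2.37, Eno1 at 2.52, Ldha at 2.54, Slc2a1 at 2.72, Pkm at 2.78 and Pfkp at 2.92. Gapdh and Aldoa lay within 1 SE of each other, as did Eno1 and Ldha, and Slc2a1 and Pkm. With scaling to the 75th percentile the difference for Pgk1 turned to -0.23. At 6 h the same probes lay closer together, between 2.13 for Hk2 and 3.44 for Pkm. Aldoa had reached 3.05, Gapdh 3.05 and Pgk1 2.41.

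**Figure D3:**
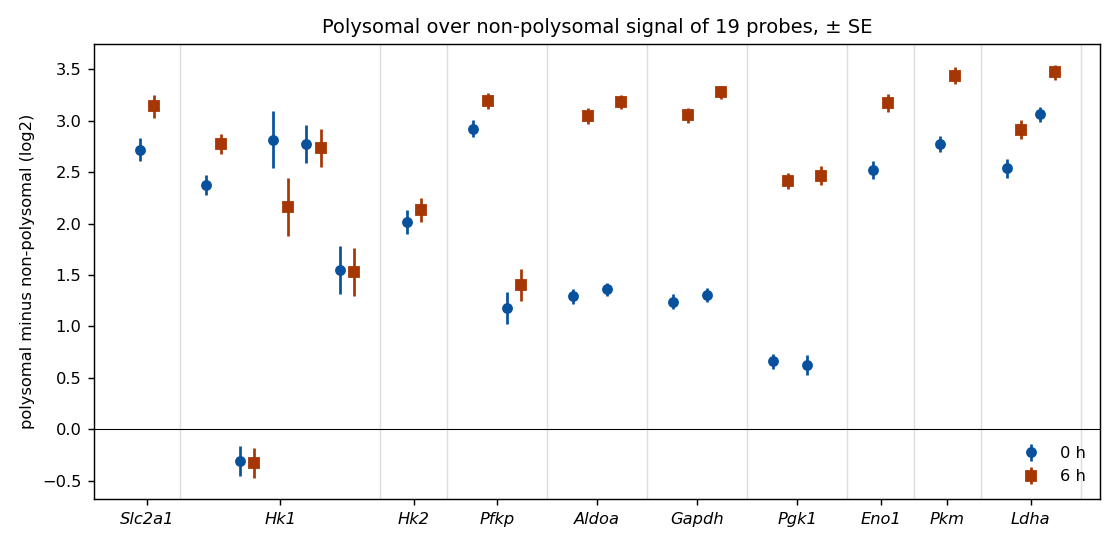
Polysomal minus non-polysomal log2 intensity (y axis, fitted difference ± SE) at 0 h (blue circles) and at 6 h (brown squares) for the 19 member probes detected, that is well above background on all arrays of at least 1 group, side by side within each gene, brightest probe first. The probes of Aldoa, Gapdh and Pgk1 go from 0.62 to 1.36 at 0 h to 2.41 to 3.28 at 6 h; the Hk1 probe below 0 is A_51_P249024.

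The M-value, which compares the 2 changes over time, was called above 0 for 10 of the 20 probes, beside 32.0% of all probes. Limma called 0 below 0, at an adjusted or an unadjusted p below 0.05, beside 4.01% of all probes. The median M-value was 0.42 over the member probes and 0.49 over all probes. Over the brightest probe of each of the 10 genes the median was 0.54. The 6 probes of Aldoa, Gapdh and Pgk1 had M-values of 1.75 to 1.97 (3.37-fold to 3.92-fold), with SEs of 0.09 to 0.13 and limma adjusted p-values of 1.25e-06 to 1.03e-05. Their M-values were above those of 95.9% to 97.4% of all probes. Within the single slides, each of which held 1 array of each group, they ran from 1.65 to 2.11.

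Eno1 (0.65 ± 0.12, limma adjusted p 0.0026) and Pkm (0.66 ± 0.11, adjusted p 0.00132) were called above 0, at 0.17 and 0.18 over the median of all probes. Both calls were lost with scaling to the 75th percentile (Eno1 0.23, Pkm 0.24) and with the bright spike-ins alone, and both values were below 0 under quantile normalization. The Eno1 call was also lost without replicate number 1 (0.52). The brightest Hk1 probe (0.40 ± 0.14, adjusted p 0.0455, a call lost on leaving out any 1 array other than non-polysomal array 1 of 0 h and polysomal array 2 of either time) and the second Ldha probe (0.41 ± 0.10, adjusted p 0.0117) were called as well, with values below the median of all probes. The brighter Ldha probe (0.38) missed the threshold at an adjusted p of 0.0503 and passed it without non-polysomal array 3 (0.47) or polysomal array 2 of 0 h (0.41). M-values of Hk1, Hk2, Pfkp, Slc2a1 and Ldha lay below the median of all probes under all 8 scalings, those of the dimmest Hk1 probe excepted. For the 6 probes of Aldoa, Gapdh and Pgk1 they lay above it under all 8, by 0.17 to 1.53.

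**Figure D4:**
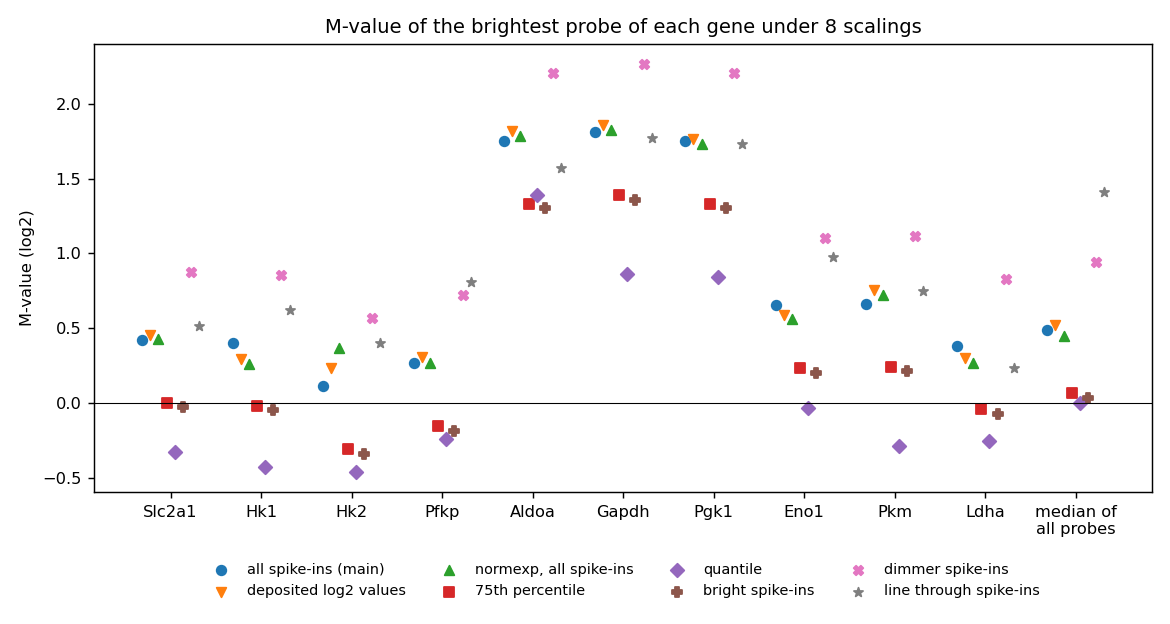
M-value (y axis, log2) of the brightest probe of each of the 10 genes, and the median over all probes at the right, under 8 ways of scaling the arrays, with 1 symbol per scaling. Aldoa, Gapdh and Pgk1 lie above 0 under all 8, while Hk1, Hk2, Pfkp, Slc2a1, Eno1, Pkm and Ldha fall to 0 or below under at least 1.

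The promoters of these genes were searched for 4 short motifs, shown because the members Slc2a1, Hk2 and Ldha rose together in both pools. Promoters were taken from RefSeq (build GRCm38.p6) as 250 bases before to 50 after each start, 17 of them for the 10 genes, on both strands. The core of the hypoxia response element, ACGTG, was in 9 of the 17, beside 19.62% of all promoters. By gene, 8 of the 10 had it, beside 21.78% of all genes. The same Aldoa site was counted for more than 1 of its starts, and in Hk1 and Gapdh the core lay only after the start. The E-box CACGTG, which always holds that core, and the full cAMP response element TGACGTCA were each in 1 of the 17, that of Ldha in both cases, beside 7.15% and 1.79% of all promoters. The GC box GGGCGG was in 10 of the 17, beside 35.66%, and sites of Aldoa and Eno1 were again counted for more than 1 start. In the stretches below, capitals mark the motif as it reads on the strand of the gene (CACGT is ACGTG on the opposite strand).
Slc2a1, ACGTG beginning 36 bases before the start, chr4:119108687-119108735, plus strand: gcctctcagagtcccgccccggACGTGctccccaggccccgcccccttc
Hk2, ACGTG 226 bases before, chr6:82774654-82774702, minus strand: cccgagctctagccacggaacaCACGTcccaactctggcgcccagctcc
Hk2, ACGTG 52 bases before, chr6:82774480-82774528, minus strand: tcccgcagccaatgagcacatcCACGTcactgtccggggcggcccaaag
Aldoa, ACGTG 126 bases before one of its starts, chr7:126799354-126799402, minus strand: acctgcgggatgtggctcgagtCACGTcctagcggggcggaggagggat
Pgk1, ACGTG 150 bases before, chrX:106186928-106186976, plus strand: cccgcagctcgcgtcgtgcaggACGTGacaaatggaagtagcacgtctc
Pkm, ACGTG 75 bases before one of its starts, chr9:59657130-59657178, plus strand: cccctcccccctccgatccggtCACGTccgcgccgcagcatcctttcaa
Ldha, E-box 145 bases before, chr7:46845637-46845686, plus strand: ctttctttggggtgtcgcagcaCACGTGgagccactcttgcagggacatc
Ldha, E-box 48 bases before, chr7:46845734-46845783, plus strand: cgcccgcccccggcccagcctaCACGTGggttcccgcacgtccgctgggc
Ldha, cAMP response element 12 bases before, chr7:46845770-46845803, plus strand: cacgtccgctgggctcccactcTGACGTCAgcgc
The core was found upstream of genes that rose in both pools (Slc2a1, Hk2, Ldha) and of genes that fell in non-polysomal RNA (Aldoa, Pgk1). It was also upstream of Pkm, which was not called in non-polysomal RNA. No promoter of Eno1, which was also called higher in both pools, held the core, nor did that of Pfkp. A match describes letters only, and binding was not measured.

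Other enzymes of the pathway moved in both directions. Of 20 further glycolytic genes, 19 had a probe and 13 were detected in this sense. By brightest probe, 10 of the 19 were called higher and 2 lower in polysomal RNA, beside 50.7% and 11.7% of all probes, with 4 and 7 under quantile normalization and 7 and 5 under scaling to the 75th percentile. In 3 of those 10 (Hkdc1, Pgk2 and Ldhc) the probe was not well above background in either group. In non-polysomal RNA 5 were called higher, Hkdc1 among them, and 5 lower, beside 20.6% and 19.6% of all probes. Their M-values were called above 0 for 9 and below 0 for 1, beside the same 32.0% and 4.01% of all probes, and for 3 and 4 with quantile normalization. Glucose-6-phosphate isomerase (Gpi1), the step between hexokinase and phosphofructokinase, had an M-value of 2.05 ± 0.11, the muscle phosphofructokinase gene Pfkm had 1.5 ± 0.11, and Gapdhs, the sperm relative of Gapdh, had 1.82 ± 0.14. Whether the Gapdhs probe also reads Gapdh was not tested. Pfkm fell by 2.28 ± 0.07 in non-polysomal RNA and the liver-type gene Pfkl rose there by 1.42 ± 0.08, both with the same sign under all 8 scalings. The neuronal enolase gene Eno2 dropped by 2.01 ± 0.11 in polysomal and by 1.26 ± 0.11 in non-polysomal RNA.

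Carriers beside Slc2a1 were led by Slc16a1, which moves lactate and pyruvate across the plasma membrane. It rose by 3.78 ± 0.11 in polysomal RNA (13.8-fold, limma adjusted p 3.23e-09) and by 3.31 ± 0.11 in non-polysomal RNA (9.89-fold, adjusted p 1.47e-08). Mpc2, a subunit of the mitochondrial pyruvate carrier, rose by 2.16 and 1.88, and the inositol transporter gene Slc2a13 by 1.63 and 2.36. Of the 16 carrier genes, 8 were called higher and 3 lower in polysomal RNA, where the shares of all probes were 50.7% and 11.7%, and 13 and 0 with the line through the spike-ins. In non-polysomal RNA 6 were called higher and 4 lower, where the shares were 20.6% and 19.6%. These calls include Slc2a12 in polysomal and Slc2a5 (lower) and Slc2a3 (higher) in non-polysomal RNA, which were not well above background in either group compared. The insulin-responsive transporter Slc2a4, a mark of mature adipocytes, was well above background on 1 of the 12 arrays.

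Regulators of glycolytic flux moved in both directions. Pfkfb4, which makes the phosphofructokinase activator fructose 2,6-bisphosphate, rose by 3.59 ± 0.10 in polysomal (12.0-fold, limma adjusted p 2.19e-09) and by 3.09 ± 0.10 in non-polysomal RNA. Its relative Pfkfb3 rose by 1.98 ± 0.09 in polysomal RNA. Myc, a transcription factor that acts on many glycolytic genes, rose by 3.12 ± 0.09 and 2.22 ± 0.09. Pdk4, a kinase that shuts off pyruvate dehydrogenase, fell by 1.76 ± 0.08 in non-polysomal RNA. Of the 18 regulator genes with a probe, 14 were called higher and 4 lower in polysomal RNA, beside 50.7% and 11.7% of all probes. These counts were 6 and 5 with quantile normalization and 7 and 4 with the bright spike-ins alone. In non-polysomal RNA 7 were called higher and 6 lower, beside 20.6% and 19.6%.

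The profiles most like those of Slc2a1 and Hk2 were sought among 16567 probes with a gene name rated above background on each of the arrays. Over the 12 arrays, the highest Pearson correlations with Slc2a1 were those of Sun1, Tra2b, Chordc1 and Atp2a2, with r of 0.9992 to 0.9995. With Hk2 they were those of Phlda1, Azin2, Ccn2, Pde4b and Pfkfb4, with r of 0.9976 to 0.9988. These probes share the arrays, their scaling and the 4 groups. Changes differed in size within the second set, from 2.05 for Azin2 and Phlda1 to 4.90 for Ccn2 in polysomal RNA.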

How the data were processed

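RNA of 4 groups of time and gradient pool, 3 replicates each, was measured on 12 one-colour arrays on 3 slides. The authors deposited scanner files (Feature Extraction 10.7.1.1) with a background-subtracted intensity per spot that was not normalized between arrays, and log2 values of their own. The deposited log2 values are log2 median pixel intensities, averaged over spots, plus a constant per array. Groups were taken from the labels. The methods call the replicates biological.

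Background-subtracted intensities were put on the log2 scale, 94 to 221 spots per array marked as outliers were left out, and spots of a probe were averaged. Arrays were shifted by the mean of 10 spike-in transcripts with 32 spots each. One model of the 4 group means was fitted with limma 3.58.1 in R 4.3.3 (lmFit, contrasts.fit, eBayes), with Benjamini-Hochberg adjustment over all probes and a limit of 0.05. Of 32839 accessions, 18754 matched a symbol in a RefSeq table. The brightest probe stands for a gene where 1 value is given. Listed genes are named where they had the 3 largest called differences of their list, and the 5 most correlated genes for Slc2a1 and Hk2, of which 1 is not reported here. The members and lists were chosen with earlier results of these data known. The fit was tested on simulated data.

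The number of arrays limits the precision. The 75th percentile of the intensity was 224 to 528, and 55.7% to 60.8% of probes were well above background. Alternatives for the scaling were quantile normalization, the 75th percentile, a line through the spike-ins and the deposited values. Others were normexp on median signals (offset 50), no dim probes, outlier spots kept, a block for the replicate number (also the slide), eBayes with a trend, the mean over probes of a gene, each array or replicate number left out, and, chosen after the data were seen, bright or dimmer spike-ins alone (mean log2 above or below 18).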

Additional observations from a re-analysis of the deposited data

Results flagged for a closer look

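For 10 member probes the change over 6 h in polysomal RNA differed from that in non-polysomal RNA by limma's test of the difference itself. Their M-values were 1.75 and 1.83 for Aldoa, 1.81 and 1.97 for Gapdh, 1.76 and 1.84 for Pgk1, 0.65 for Eno1, 0.66 for Pkm, 0.41 for the second Ldha probe and 0.40 for the brightest Hk1 probe. The probes of Aldoa, Gapdh and Pgk1 were called under each of the settings tried. The other 4 were not, and those of Hk1 and Ldha lay below the median of all probes. On the 6 h polysomal arrays the dimmer spike-ins also read lower than on the others, and a shift shared by all probes in the M-value cannot be told apart from this difference in spike-ins. Relative to the median of all probes, the M-values of Aldoa, Gapdh and Pgk1 were above 0 under all 8 scalings.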

How the results depend on the processing

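Counts of called members moved with the scaling. M-values called above 0 numbered 6 with scaling to the 75th percentile, 6 with quantile normalization, 6 with the bright spike-ins alone and 18 with the line through the spike-ins, against 10. In the first 3 the 6 were the probes of Aldoa, Gapdh and Pgk1. With quantile normalization 4 members were called below 0. Called higher in polysomal RNA at 6 h were 6 members with quantile normalization, against 15, and called lower were 4 with the 75th percentile and 6 with quantile normalization, against 1. Lower in polysomal than in non-polysomal RNA at 0 h were 4 with the 75th percentile, 1 with quantile normalization, 1 with normexp and 0 to 1 with 1 array or replicate number left out. At 6 h it was 1 with each of the 75th percentile, quantile normalization, no dim probes, a trend in the prior variance and the bright spike-ins, and 0 to 1 with 1 array or replicate number left out, against 0 at both times. Leaving out array 2 of the 0 h non-polysomal group gave that 1, Hk1 probe A_51_P249024, at both times (-0.48 and -0.33). The other counts stayed within 1.5 times.

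Single values changed sign, where either value was called, as follows. With scaling to the 75th percentile, the M-value was -0.0193 for Hk1 (A_52_P102773) and -0.0127 for Ldha (second probe), the polysomal change was -0.002 for Hk1 and -0.25 for Pfkp, and polysomal minus non-polysomal at 0 h was -0.23 and -0.26 for Pgk1. With quantile normalization, the M-value was -0.43 for Hk1, -0.46 for Hk2, -0.0336 for Eno1, -0.29 for Pkm and -0.52 for the second Ldha probe, and the polysomal change was -0.51 for Hk1, -0.31 for Pfkp, -0.20 for the second Aldoa probe and -0.35 for Pkm. With the bright spike-ins, the M-value was -0.051 for Hk1 and -0.0444 for the second Ldha probe and the polysomal change -0.16 for Pfkp. With the line, the M-values of the Hk1 probes A_51_P249024, A_52_P479599 and A_52_P9337 were 0.60, 0.71 and 0.98, and the polysomal changes of the latter pair 0.58 and 0.55. With normexp, A_52_P9337 had 0.31 and 0.27. The cause was not tested.

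With the replicate number, which is also the slide, as a replicate block, 97 of 100 single values of the members kept their call and 3 lost it. These were the M-value of Hk1 (0.40, adjusted p 0.0646), the non-polysomal change of Eno1 (0.25, adjusted p 0.0787) and the polysomal change of Hk1 probe A_52_P87141 (1.32, adjusted p 0.053). Deviations of same-numbered arrays correlated at -0.08 to 0.21, above 0.1 in 3 of 18 pairs, so the number was not taken as a pairing. Probes not well above background carry no fold. Mean signals are not used in the normexp setting, which took medians.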

Other observations

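Beside glycolysis, the pentose phosphate pathway branches off at glucose 6-phosphate and makes NADPH and ribose. All of its 7 listed genes with a probe had called M-values above 0, beside 32.0% of all probes, and 3 had with quantile normalization or with the bright spike-ins alone. The M-value was 1.80 ± 0.10 for the transketolase gene Tkt, 1.49 ± 0.12 for Pgls, which opens the lactone ring, and 1.19 ± 0.12 for the transaldolase gene Taldo1. Tkt fell by 1.73 ± 0.07 in non-polysomal RNA, while its polysomal difference was 0.07 ± 0.07 (limma adjusted p 0.381). In polysomal RNA 6 of the 7 were called higher, beside 50.7% of all probes, but with scaling to the 75th percentile 2 were called higher and 1 lower, and with quantile normalization 2 higher and 5 lower. In non-polysomal RNA 4 were called lower, beside 19.6% of all probes, and limma called 0 higher, at an adjusted p below 0.05.

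Of 8 genes of gluconeogenesis, 7 had a probe and 4 were well above background on all arrays of some group. Pck2, the mitochondrial phosphoenolpyruvate carboxykinase, fell by 2.32 ± 0.07 in non-polysomal RNA (limma adjusted p 1.03e-08) and by 0.68 ± 0.07 in polysomal RNA (adjusted p 1.73e-05), and its M-value was 1.64 ± 0.10. G6pc2 was called in polysomal RNA without being well above background in either group.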
